A study of Homo sapiens with 9 samples.

Results

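The liver plasma protein genes described here are ALB, TTR, TF, AMBP, SERPINA1, SERPINA3, FGA, FGB, FGG and AGT. They were chosen by gene symbol as secreted products of hepatocytes other than AFP, and all 10 were found among the 33861 genes of the deposited table. The table holds 9 RNA-seq libraries of HCT116, an established human colorectal carcinoma cell line, in 3 groups of 3. NC libraries were the controls. Activin libraries came from cells given activin A at 100 ng/mL for 5 days, and Activin+HGF libraries from cells given the same activin course and then hepatocyte growth factor (HGF) at 20 ng/mL for 5 more days. The study asked whether the sequence of factors that drives stem cells to endoderm and then to liver progenitors changes colorectal cancer cells. Total counts ran from 57453977 to 77016167 per library. The labels do not say whether replicates were separate cultures, so p-values measure only the spread between these libraries. How long control cells were cultured is not given in the sources used here, and time in culture and treatment cannot be told apart.

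Plasma proteins are made mainly by hepatocytes and exported to the blood, where they carry ligands and iron, set osmotic pressure, inhibit proteases, form clots and supply peptide hormones. Their genes are read from promoters that bind liver-enriched factors, among them HNF4 and C/EBP proteins. Several of them, including the antiproteases and the fibrinogen chains, rise in the acute-phase response, in which interleukin-6 family cytokines act through STAT3 and C/EBP factors. AFP, the fetal counterpart of albumin, lies beside ALB.

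Promoter stretches are shown first because several of these genes respond to interleukin-6 family cytokines through STAT3. The STAT motif TTCNNNGAA, which reads the same on both strands, occurred within 250 bases upstream of the start in 2 of the 12 RefSeq promoter windows of the 10 genes (build GRCh38.p14), those of AGT and FGA. It occurred in 6.57% of all 35116 windows. Each stretch below is 30 bases on the strand of the gene, with the match in capitals.
AGT: gatcactaagacTTCCTGGAAgaggtccca
FGA: aaagccaccctgTTCCTGGAAtgtgagatc
These stretches lie at chr1:230714275-230714304 (minus strand) and chr4:154590956-154590985 (minus strand), and the match began 170 bases upstream of the AGT start and 231 bases upstream of the FGA start. With both strands searched, an NF-kB motif was in 3 windows (FGG, AMBP and SERPINA3, against 22.6% of all windows). TATAAA was in 1 window (AGT, against 10.7%) and also in that of AFP. The HNF4 motifs (a direct repeat and CAAAGTCCA) and the C/EBP motifs TTGCGCAAT and TTNNGCAAT, of which the second contains the first, were in 0 of the 12 windows, and in between 0.0114% and 2.04% of all windows. A match is a description of letters, not of binding.

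In absolute terms the plasma protein genes were low in all 3 groups. Levels are given as FPKM (fragments per kilobase of transcript, scaled to library size). They can be compared between genes if the length used for each gene is right. For TF the implied length was 31.3 kb (described below), so its FPKM and its place among genes may be too low. The summed FPKM of the 10 genes was 0.81 to 1.0 in NC libraries, 3.36 to 3.97 in Activin libraries and 4.09 to 5.14 in Activin+HGF libraries, and the groups did not overlap. SERPINA1 alone made up 82.7% to 94.3% of that sum in NC, 67.6% to 77.8% in Activin and 53.5% to 60.5% in Activin+HGF. SERPINA1 was also the only gene of the 10 that reached 1 FPKM in every library of a group, in both treated groups, and 0 of the 10 did so in NC. None of the 10 reached 5 FPKM in any library.

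**Figure D1:**
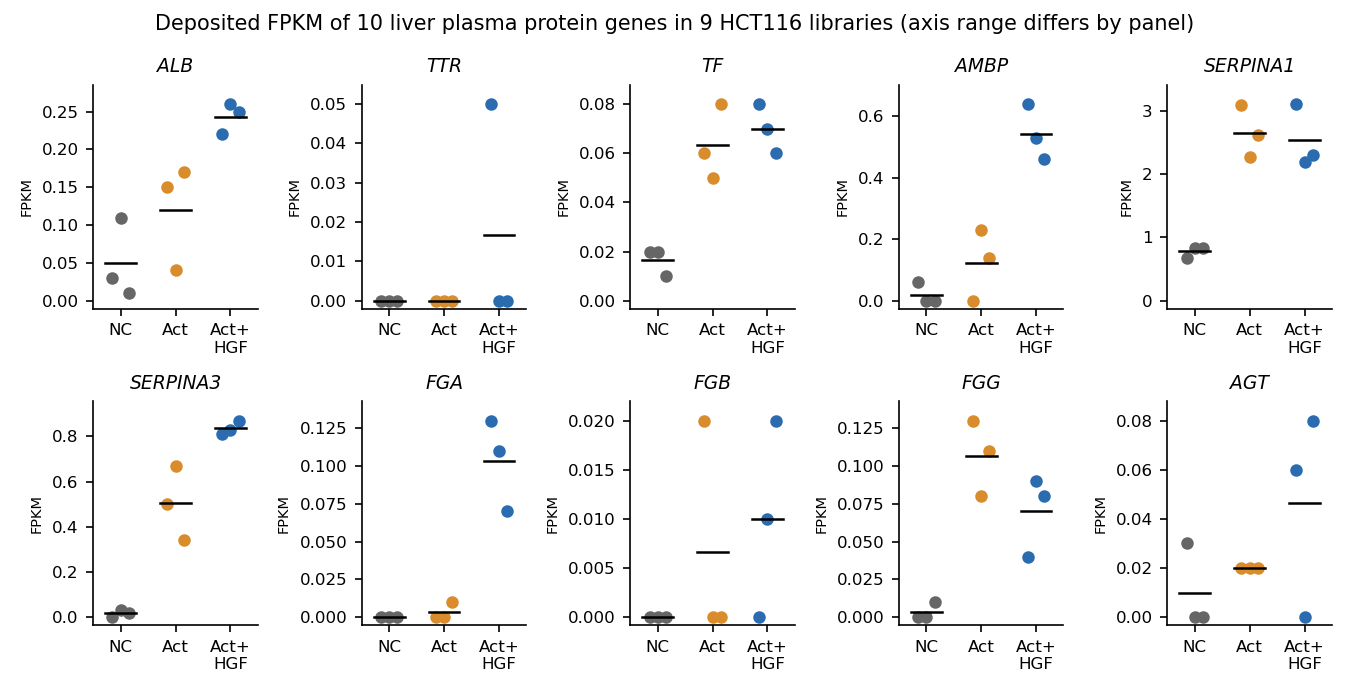
Deposited FPKM (vertical axis, linear, with its own range in each panel) of the 10 plasma protein genes in 3 NC, 3 Activin (Act) and 3 Activin+HGF (Act+HGF) libraries. Points are libraries and lines are group means. SERPINA1 runs from 0.67 to 3.11 FPKM, while TTR is at 0 in 8 libraries and FGB stays at or below 0.02.

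The place of each gene among all genes of the table shows how low these levels are. In Activin+HGF libraries 8044 genes (23.8% of the table) had a higher mean FPKM than SERPINA1. The share was 34.9% for SERPINA3, 39.0% for AMBP and 46.3% for ALB, and it lay between 54.5% and 74.2% for the other 6 genes. TF is among these 6, and its FPKM may be too low. AFP had 271 genes (0.8%) above it in the same libraries, but its FPKM does not match its counts (described below with ALB). In CPM, which is not scaled to length, AFP was at 39.3 ± 4.38 and SERPINA1 at 17.4 ± 5.2 (SD, n = 3) in Activin+HGF libraries.

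**Figure D2:**
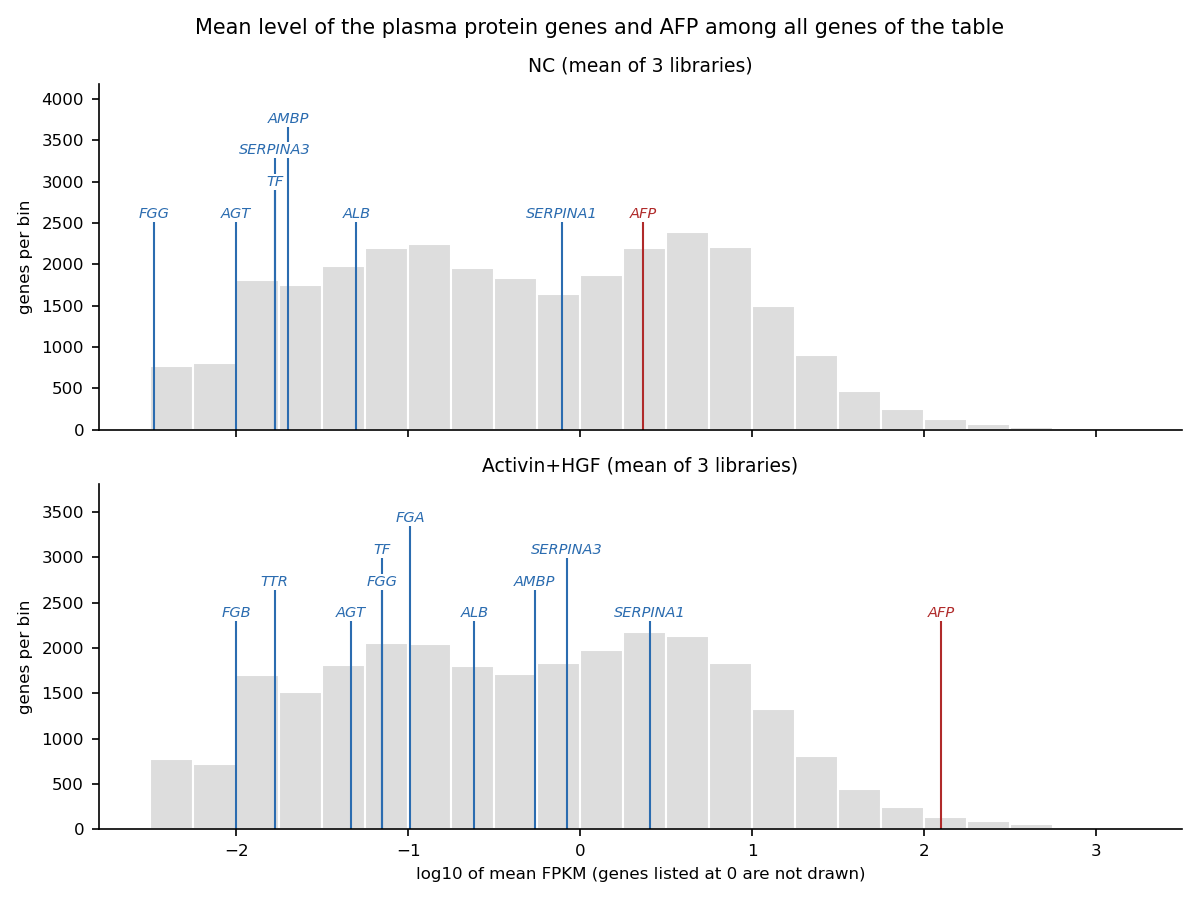
Histogram of all genes by log10 of mean FPKM (horizontal axis) in NC (upper panel) and Activin+HGF libraries (lower panel), with the plasma protein genes as blue lines and AFP as a red line; genes listed at 0 in a group are not drawn. The blue lines move to the right from NC to Activin+HGF, but SERPINA1, the highest, stays at a mean of 2.54 FPKM while AFP is at 126, an FPKM that does not match its counts.

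The order of levels within a group was clear only at the top. In NC, SERPINA1 (0.78 ± 0.095 FPKM, SD, n = 3) stood apart, and each of the other genes overlapped the next in the order, from ALB (0.05 ± 0.053) down. In Activin libraries SERPINA1 (2.66 ± 0.41) was above SERPINA3 (0.503 ± 0.17), which was above AMBP (0.123). AMBP, ALB (0.12), FGG (0.107) and TF (0.0633) each overlapped the next, and TF was above AGT (0.02). In Activin+HGF libraries SERPINA1, SERPINA3, AMBP and ALB followed each other without overlap, and from FGA (0.103) down to FGB (0.01) each gene overlapped the next. The place of TF in this order is uncertain. In CPM the mean of TF was above those of AMBP and ALB in every group (2.57, 1.45 and 1.18 in Activin+HGF). Some TF counts may come from an overlapping gene (described below).

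Counts per gene were tested with edgeR's quasi-likelihood test over 20988 genes with Benjamini-Hochberg adjustment, and a gene passed at an adjusted p under 0.05. Of the 10 plasma protein genes 7 entered the test, and TTR, FGB and AGT were too low to enter. Only SERPINA1 and TF were over the count filter in every library. FGA entered through the Activin+HGF libraries alone. FGG and AMBP entered through treated libraries alone, with 0 NC libraries over the filter, and ALB and SERPINA3 had 1 NC library over it. The number that passed is therefore a description and not support for a rise of the group. With activin 4 genes were higher than in NC (SERPINA1, SERPINA3, TF and FGG) and 0 were lower, where 9.58% of all tested genes were higher and 8.41% lower. In Activin+HGF against Activin 0 passed in either direction, where 7.41% of all tested genes were higher and 5.45% lower. In Activin+HGF against NC all 7 tested genes were higher, where 16.4% of all tested genes were higher and 15.0% lower. The median log2 fold changes of the 7 were 2.65, 1.07 and 3.92 in these comparisons, beside 0.02, -0.04 and -0.03 over all tested genes. Without FGA, whose NC libraries were at 0, they were 2.25, 0.81 and 3.15, and the last was 3.53 with FGA at its lower bound. In CPM, all 3 libraries of the first group were above all 3 of the second for SERPINA1, SERPINA3, TF and FGG in Activin against NC (20.9% of all tested genes), for ALB, TF, SERPINA3, FGA and AMBP in Activin+HGF against Activin (17.2%), and for all 7 in Activin+HGF against NC (25.7%). The comparisons share libraries (NC, Activin or Activin+HGF in turn) and are not independent of each other. In bulk libraries, more cells that express a gene and more RNA per cell cannot be told apart.

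**Figure D3:**
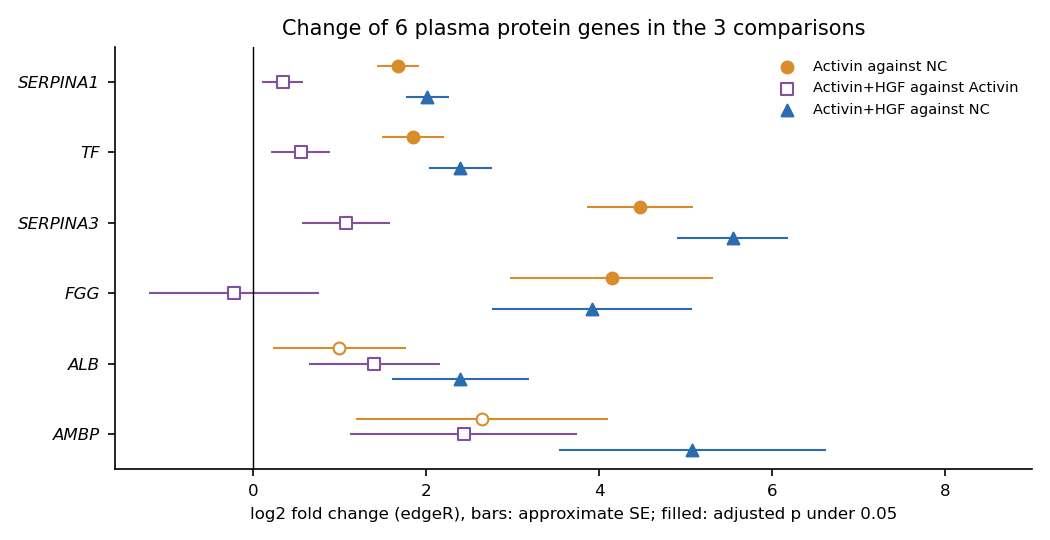
Log2 fold change (horizontal axis) with approximate standard errors (bars) for SERPINA1, TF, SERPINA3, FGG, ALB and AMBP in Activin against NC (circles), Activin+HGF against Activin (squares) and Activin+HGF against NC (triangles); filled symbols passed an adjusted p under 0.05. All squares are open, and all triangles are filled. FGA is left out because its NC libraries are at 0 counts.

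SERPINA1 encodes alpha-1-antitrypsin, the main circulating inhibitor of neutrophil elastase (chr14:94376747-94390693, minus strand; deposited positions match GRCh38 annotation). Its counts were 221, 318 and 370 in NC libraries, 1116, 819 and 978 in Activin libraries and 1272, 950 and 964 in Activin+HGF libraries. Every treated library lay above every NC library, and the treated groups overlapped. SERPINA1 was 3.19-fold higher with activin than in NC (log2 fold change 1.67, SE 0.25, adjusted p = 0.00145, edgeR) and 4.03-fold higher in Activin+HGF than in NC (2.01, SE 0.25, adjusted p = 0.000318). It passed in both comparisons with each of the 9 libraries left out in turn. The change from Activin to Activin+HGF was 0.34 (SE 0.24, adjusted p = 0.376, edgeR), and its sign turned with the scaling, to -0.04 with library totals and -0.07 on log2(FPKM + 0.1).

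SERPINA3 encodes alpha-1-antichymotrypsin, an acute-phase inhibitor of chymotrypsin-like proteases (chr14:94612384-94624055, plus strand). Its FPKM was 0, 0.03 and 0.02 in NC libraries, 0.5, 0.67 and 0.34 in Activin libraries and 0.81, 0.83 and 0.87 in Activin+HGF libraries. The 3 groups did not overlap, and the Activin libraries were the most spread. It was 22.1-fold higher with activin than in NC (log2 4.47, SE 0.61, adjusted p = 0.00103, edgeR) and 46.5-fold higher in Activin+HGF (5.54, SE 0.64, adjusted p = 0.000215), from NC counts of 1, 14 and 11. Both calls held with each library left out in turn, and without NC 2 the first value moved to 5.10. From Activin to Activin+HGF the change was 1.07 (SE 0.51, adjusted p = 0.188, edgeR). All 2660 bases of its longest annotated transcript lie within AL049839.2, an overlapping protein-coding gene on the same strand, so reads of the pair could be counted together.

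AMBP encodes the common precursor of alpha-1-microglobulin, a heme and radical scavenger, and bikunin, a protease inhibitor (chr9:114060127-114078328, minus strand). Its counts were 8, 0 and 0 in NC libraries, 0, 33 and 21 in Activin libraries and 102, 89 and 76 in Activin+HGF libraries. The Activin+HGF libraries were above all others, and NC and Activin overlapped. AMBP was higher in Activin+HGF than in NC (log2 5.08, SE 1.54, adjusted p = 0.0295, edgeR). AMBP entered the test only through treated libraries, so this p and the calls below describe the counts and give no further support. Without NC 1 the NC libraries left were at 0 and the fitted log2 value moved to 9.59, so the size of the change rests on 1 library. The call was lost without NC 2, NC 3, Activin+HGF 1 or Activin+HGF 2 (adjusted p = 0.0558 to 0.0852, edgeR). Activin against NC gave 2.65 (SE 1.46, adjusted p = 0.253, edgeR) and Activin+HGF against Activin 2.43 (SE 1.31, adjusted p = 0.242, edgeR). On log2(FPKM + 0.1) limma called the latter, with an adjusted p of 0.0281.

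ALB encodes serum albumin, the most abundant plasma protein and a carrier of fatty acids, hormones and drugs (chr4:73397114-73421410, plus strand). Its FPKM was 0.03, 0.11 and 0.01 in NC libraries, 0.15, 0.04 and 0.17 in Activin libraries and 0.22, 0.26 and 0.25 in Activin+HGF libraries, from counts of 8, 33 and 4, then 38, 12 and 47, then 65, 79 and 76. The Activin+HGF libraries were above all others, and NC and Activin overlapped. ALB was higher in Activin+HGF than in NC (5.24-fold, log2 2.39, SE 0.79, adjusted p = 0.0416, edgeR). Without NC 2, the highest NC library, the log2 fold change was 3.66 (adjusted p = 0.0125, edgeR). The call was lost without NC 1, NC 3, Activin 1, Activin 3 or any of the 3 Activin+HGF libraries (adjusted p = 0.0572 to 0.139, edgeR), and with library totals or no count filter (adjusted p = 0.0684 and 0.059, edgeR). Activin against NC was 0.99 (SE 0.77, adjusted p = 0.432, edgeR) and Activin+HGF against Activin 1.40 (SE 0.76, adjusted p = 0.245, edgeR).

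AFP, 9.73 kb from ALB on the same strand, had FPKM values of 2, 3 and 2 in NC, 2.02, 5 and 4 in Activin and 85, 145 and 147 in Activin+HGF libraries, with counts of 1900, 2700 and 2800 in the last. AFP was the only 1 of 7693 genes at 2 FPKM or more whose FPKM was whole in all 3 Activin+HGF libraries, and the only 1 of 7112 genes with at least 1000 counts whose counts were multiples of 100 in all 3. Counts and FPKM together imply a transcript length, and for AFP it was 0.107 times the longest annotated transcript, the lowest of 22453 genes (median 1.38). ALB, TF, SERPINA1, SERPINA3, FGG and AMBP lay between 1.52 and 2.24. Of the 10 plasma protein genes only SERPINA1 reached 2 FPKM in all 3 Activin+HGF libraries, and its FPKM was not whole. The rest were too low for the FPKM check, and all 10 were too low for the count check. The rounding checks therefore cannot set these genes apart from AFP. The origin of the AFP values was not tested, and every comparison of AFP with the plasma protein genes rests on them.

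Fibrinogen is built from 3 chains encoded side by side on chromosome 4 by FGB (chr4:154563011-154572807, plus strand), FGA (chr4:154583128-154590745, minus) and FGG (chr4:154604134-154612849, minus). FGA counts, for the alpha chain, were 0 in all NC libraries, 0, 0 and 4 in Activin libraries and 42, 39 and 23 in Activin+HGF libraries. FGA was thus seen in the Activin+HGF group almost alone. It was at least 11.5-fold higher in Activin+HGF than in NC, taking 3 counts in the smallest NC library (0.049 CPM, counts scaled to library size) as the limit of NC. This bound covers counting error only and takes counts as independent fragments, which low counts in this table may not be. The adjusted p was 0.0111 (edgeR). FGA entered the test only through the Activin+HGF libraries, so this p and the calls below describe the counts and give no further support. In Activin+HGF against Activin FGA had an unadjusted p of 0.00949, the only tested plasma protein gene under 0.05, and an adjusted p of 0.0623 (edgeR). DESeq2 gave an adjusted p of 0.00728 for the same comparison.

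FGG, for the gamma chain, had counts of 0, 0 and 5 in NC libraries, 36, 21 and 33 in Activin libraries and 13, 31 and 25 in Activin+HGF libraries. Both treated groups were above NC and overlapped each other. FGG was higher with activin (log2 4.14, SE 1.17, adjusted p = 0.034, edgeR) and in Activin+HGF (3.92, SE 1.16, adjusted p = 0.0273, edgeR) than in NC. FGG entered the test only through treated libraries, so these p-values and the calls below describe the counts and give no further support. Without NC 3, the only NC library with FGG counts, the fitted log2 values moved to 7.80 and 7.58, so the sizes rest on that library. The first call was lost without NC 1, NC 2, Activin 1, Activin 3, Activin+HGF 2 or Activin+HGF 3 (adjusted p = 0.0535 to 0.102, edgeR), and the second without NC 1, NC 2, Activin+HGF 2 or Activin+HGF 3 (0.056 to 0.084). Activin+HGF against Activin was -0.23 (SE 0.98, adjusted p = 0.906, edgeR). FGB, for the beta chain, had counts of 8, 4 and 8 in Activin 1, Activin+HGF 2 and Activin+HGF 3, and 0 in the other 6 libraries. The 3 chains therefore had different patterns, with FGG present in both treated groups, FGA in Activin+HGF and FGB near the limit of detection, although the difference between chains was not tested. Next to the cluster, LRAT (14.1 kb from FGG), which esterifies retinol, also rose with activin (1.28, adjusted p = 0.00172, edgeR), and PLRG1 (12.6 kb from FGB), a splicing factor, was at 0.18 (adjusted p = 0.627, edgeR).

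TF encodes transferrin, which carries ferric iron to the transferrin receptor (chr3:133746040-133778784, plus strand). Its counts were 38, 32 and 30 in NC libraries, 124, 91 and 161 in Activin libraries and 170, 166 and 140 in Activin+HGF libraries, or 0.01 to 0.02, 0.05 to 0.08 and 0.06 to 0.08 FPKM. The treated libraries were above every NC library. In CPM the lowest Activin+HGF library (2.18) was barely above the highest Activin library (2.14), and in FPKM these 2 groups overlapped. The change from Activin to Activin+HGF was 0.55 (SE 0.34, adjusted p = 0.314, edgeR), and 0.17 with library totals (adjusted p = 0.764, edgeR). TF was 3.59-fold higher with activin (log2 1.85, SE 0.36, adjusted p = 0.00603, edgeR) and 5.25-fold higher in Activin+HGF than in NC (2.39, SE 0.36, adjusted p = 0.000957, edgeR), and both calls held with each library left out in turn. On log2(FPKM + 0.1), where such low levels are compressed, the first was 0.48 (limma, adjusted p = 0.0865). TF is an uncertain gene in these files. Its counts and FPKM imply a length of 31.3 kb, and the longest annotated transcript, TF-201, has 20602 bases with an exon of 18055 bases (chr3:133778586-133796640) that runs beyond the deposited end of TF and shares 12608 bases with SRPRB, a gene on the same strand. SRPRB, a subunit of the signal recognition particle receptor, was at 9.24, 12.7 and 9.52 FPKM and changed by 0.37 with activin (adjusted p = 0.124, edgeR). The share of TF counts that came from SRPRB or TFP1 was not tested.

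TTR and AGT were at the edge of detection. TTR encodes transthyretin, a carrier of thyroxine and of retinol-binding protein (chr18:31557009-31598833, plus strand), and had 12 counts in Activin+HGF 1 and 0 in the other 8 libraries. AGT encodes angiotensinogen, the substrate of renin (chr1:230702523-230714122, minus strand), and had counts of 4, 0 and 0 in NC, 4, 4 and 4 in Activin and 12, 0 and 16 in Activin+HGF libraries. No difference was detectable in either at this depth, where 3 counts correspond to 0.0373 to 0.0551 CPM. Low counts in this table were often multiples of 4: 17 of the 34 counts from 1 to 40 in the plasma protein genes (50.0%) and 35.0% of such counts over all genes, so that a count of 4 need not stand for 4 independent fragments.

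Other secreted liver proteins were low as well, and 27 of 35 further transport and acute-phase proteins in the table summed to 2.24 to 2.49 FPKM in NC, 2.71 to 3.94 in Activin and 4.48 to 4.54 in Activin+HGF libraries. Of the 35, 12 were tested; with activin 2 were higher and 0 lower, in Activin+HGF against Activin 0 passed, and in Activin+HGF against NC 4 were higher and 0 lower. Over all tested genes 9.58%, 7.41% and 16.4% were higher in the same comparisons. A2M, a broad protease trap, rose by 3.93 on the log2 scale with activin (adjusted p = 0.00809, edgeR), from NC counts of 4, 0 and 7. It reached a mean of only 0.163 FPKM in Activin+HGF libraries. HRG, a histidine-rich plasma glycoprotein, rose with activin by 2.80 (adjusted p = 0.00543, edgeR), and from Activin to Activin+HGF it was -1.15 (adjusted p = 0.148), with means of 0.03, 0.24 and 0.0867 FPKM in NC, Activin and Activin+HGF libraries. HPX, the heme carrier hemopexin, was 1.83 higher in Activin+HGF than in NC (adjusted p = 0.00504, edgeR) and had means of 0.25, 0.533 and 0.723 FPKM in NC, Activin and Activin+HGF libraries. The median log2 fold changes of the 12 were 0.69, 0.85 and 1.56 in the 3 comparisons.

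Among 22 liver coagulation and fibrinolysis proteins, 13 were tested, and 1, 2 and 3 were higher and 0, 0 and 2 lower in Activin against NC, Activin+HGF against Activin and Activin+HGF against NC, beside the shares of all tested genes given above. PROS1, the cofactor protein S, rose by 1.08 from Activin to Activin+HGF (adjusted p = 0.0117, edgeR), and F5, coagulation factor V, was lower in Activin+HGF than in NC (-2.39, adjusted p = 0.00909, edgeR). SERPINA5, the protein C inhibitor and 19.3 kb from SERPINA3, was at 1.32, 1.26 and 1.5 FPKM in NC, 1.33, 2.12 and 1.49 in Activin and 4.25, 3.21 and 2.66 in Activin+HGF libraries. It changed by 0.22 with activin (adjusted p = 0.678, edgeR) and rose by 1.40 from Activin to Activin+HGF (adjusted p = 0.0172, edgeR), whereas SERPINA1 and SERPINA3 of the same serpin cluster passed with activin and not from Activin to Activin+HGF. Of the 10 serpin genes of this cluster on chromosome 14, 4 were tested. Of these, 2, 1 and 3 were higher and 0 lower in the 3 comparisons, where 9.58%, 7.41% and 16.4% of all tested genes were higher. The genes that passed were SERPINA1, SERPINA3 and SERPINA5, which are already counted above, so this is not a separate result. The difference between SERPINA5 and its neighbours was not tested.

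Several partners of transferrin were expressed far above it. FTL and FTH1, the light and heavy chains of the iron store ferritin, rose with activin by 1.71 and 1.9 (adjusted p = 0.0014 and 0.000413, edgeR), and FTL rose again from Activin to Activin+HGF by 1.19 (adjusted p = 0.0151). FTL reached means of 1101, 3738 and 6596 FPKM in NC, Activin and Activin+HGF libraries. TFRC, the transferrin receptor, had means of 41.4, 37.8 and 58.7 FPKM and rose from Activin to Activin+HGF by 1.07 (adjusted p = 0.0313, edgeR). NCOA4, which delivers ferritin for breakdown, fell by 0.79 with activin (adjusted p = 0.0173, edgeR). Of the 11 iron genes, all tested, 2 were higher and 3 lower with activin, 2 higher and 0 lower from Activin to Activin+HGF, and 3 higher and 2 lower in Activin+HGF than in NC. Over all tested genes 9.58% were higher and 8.41% lower with activin, and 7.41% and 5.45% from Activin to Activin+HGF. In Activin+HGF against NC these shares were 16.4% and 15.0%. Of 15 renin-angiotensin genes 7 were tested, beside the same shares of all tested genes. None of the 7 passed in Activin against NC or in Activin+HGF against Activin (edgeR), and 3 passed in Activin+HGF against NC, where ACE (0.88, adjusted p = 0.0152, edgeR) and ANPEP (3.87, adjusted p = 0.0171), both peptidases, were higher and ENPEP, aminopeptidase A, was lower (-1.13, adjusted p = 0.0184).

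Of the acute-phase regulators (15 genes of IL-6 family signalling and C/EBP factors, 14 tested), 5 rose with activin, 0 passed from Activin to Activin+HGF, and 6 were higher in Activin+HGF than in NC, with 0 lower in any comparison. Over all tested genes 9.58%, 7.41% and 16.4% were higher in these comparisons. CEBPB, a C/EBP factor of the acute-phase response, was at 9.54, 13.73 and 12.85 FPKM in NC, 66.4, 87.3 and 67.35 in Activin and 53.5, 102.2 and 113.6 in Activin+HGF libraries. It rose with activin by 2.55 (SE 0.28, adjusted p = 0.000315, edgeR). CEBPD, its relative, rose by 2.57 (adjusted p = 0.00094, edgeR), IL11, a cytokine of the IL-6 family, by 2.34 (adjusted p = 0.000431) and STAT3, the transducer, by 0.68 (adjusted p = 0.0161). LIF, another cytokine of the family, was higher in Activin+HGF than in NC (0.88, adjusted p = 0.0472, edgeR) although its libraries overlapped. Activin+HGF 1 was the lowest of the Activin+HGF libraries for CEBPB, CEBPD, STAT3 and LIF. The link between these genes and the plasma protein genes was not tested.

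**Figure D4:**
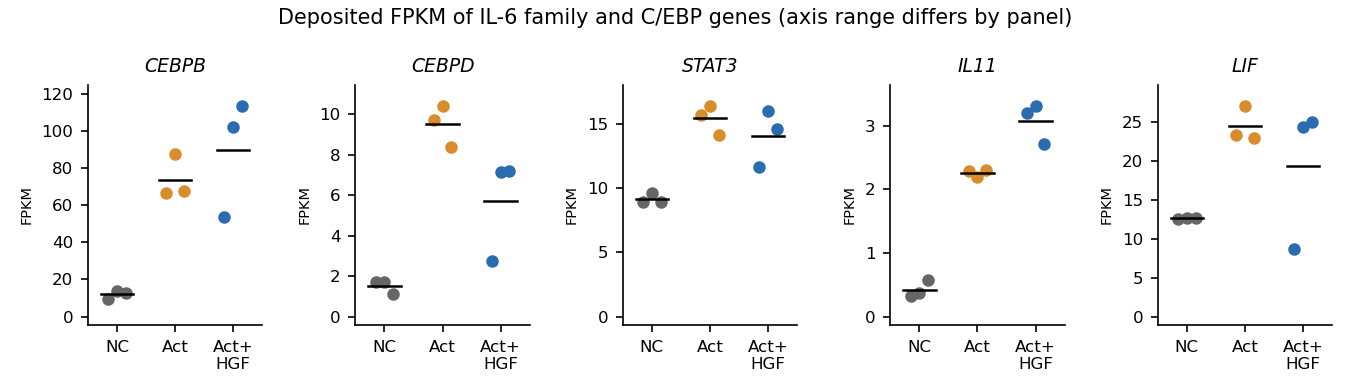
Deposited FPKM (vertical axis, linear, with its own range in each panel) of CEBPB, CEBPD, STAT3, IL11 and LIF in the 9 libraries; points are libraries and lines are group means. All Activin libraries lie above all NC libraries in each panel, and Activin+HGF 1 is the lowest Activin+HGF library in the panels other than IL11, at 8.65 FPKM for LIF against 24.33 and 24.95.

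Of 13 liver transcription factors 9 were tested. GATA6, an endoderm factor, was the 1 gene that rose with activin (1.29, adjusted p = 0.00507, edgeR), where 9.58% of all tested genes were higher and 8.41% lower. From Activin to Activin+HGF 0 passed, where 7.41% of all tested genes were higher and 5.45% lower. FOXA1 (1.00, adjusted p = 0.0407, edgeR) and GATA6 were higher and NR5A2 (-2.0, adjusted p = 0.0354) was lower in Activin+HGF than in NC, 2 higher and 1 lower of 9, where 16.4% of all tested genes were higher and 15.0% lower. HNF4A was between 0.22 and 0.88 FPKM.

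Hepatocyte markers other than plasma proteins were also low. Of 20 genes 17 were in the table and 10 tested, with 1 higher (ASGR1, the asialoglycoprotein receptor, 2.23 with activin, adjusted p = 0.0113, edgeR) and 1 lower (CPS1, a urea cycle enzyme, -1.13, adjusted p = 0.013). The same counts were found in Activin+HGF against NC, and 0 passed from Activin to Activin+HGF. Over all tested genes 9.58% were higher and 8.41% lower with activin, and 7.41% and 5.45% from Activin to Activin+HGF. In Activin+HGF against NC these shares were 16.4% and 15.0%, and they also stand beside the marker counts that follow. Their summed FPKM was 5.58 to 6.43 in NC, 3.34 to 4.75 in Activin and 3.41 to 3.77 in Activin+HGF libraries, and every treated library was below every NC library. CPS1 carried that order, at 5, 4.3 and 4.55 FPKM in NC, 2.9, 1.17 and 2.77 in Activin and 2.01, 2.21 and 2.05 in Activin+HGF libraries. Without CPS1, a choice made after the values were seen, the other 16 markers summed to 1.22 to 1.43, 1.85 to 2.17 and 1.36 to 1.76 FPKM, so that every Activin library was then above every NC library. Colorectal epithelial markers summed to 667.5 to 722.2, 556.2 to 759.6 and 645.3 to 875.9 FPKM, a sum led by the keratins KRT19, KRT8 and KRT18. VIL1, CDX1 and CEACAM5 stayed at or below 0.14 FPKM in every library, and LGALS4 at or below 0.28. Of these 11 markers 9 were tested, with 1 higher (CDH1) and 1 lower (KRT20) with activin. From Activin to Activin+HGF 1 was higher (EPCAM) and 0 lower. In Activin+HGF against NC 2 were higher (EPCAM and KRT19) and 1 lower (KRT20). Markers of leukocytes, endothelium and fibroblasts (12 genes, 7 tested) summed to 3.04 to 3.11, 4.56 to 6.34 and 3.13 to 4.08 FPKM, with 1 higher and 1 lower in both comparisons with NC and 1 higher from Activin to Activin+HGF. Their part in the plasma protein values was not tested.

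Across the 9 libraries, the 2 tested genes with the highest Pearson correlation of log2 CPM to SERPINA1 were SLC20A1 (r = 0.991) and CRELD1 (0.99), and for SERPINA3 they were OTUD7A and AC018755 (both 0.991). For TF they were RAB9A (0.991) and AL031118 (0.989), for FGG HLA-DQA1 (0.988) and LINC01537 (0.985), and for FGA SNORD36A (0.997) and ANAPC1P2 (0.983). AMBP was closest to HOXC5 (0.978) and EFR3B (0.975), and ALB to AP006623 (0.946) and AL589765 (0.934). Among the plasma protein genes themselves, r ran from 0.964 between SERPINA1 and SERPINA3 down to 0.488 between FGA and FGG. These correlations describe 9 libraries that share 3 groups, and the low genes among them rest on few counts.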

How the data were processed

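RNA of HCT116 cells was depleted of ribosomal RNA and sequenced. The submitters' processing notes name cutadapt 1.9, HISAT2 2.0.4 and StringTie 1.3.4d; the build and the counting settings, strand included, are not given in the sources used here. The authors deposited unnormalized read counts per gene and FPKM, which the authors scaled to depth and length. Deposited positions were matched to GENCODE annotation (GRCh38), where all 10 genes overlapped their entry.

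Groups came from the labels, which give no batch. Counts were tested with edgeR 4.0.16 (filterByExpr, TMM, quasi-likelihood, 9 libraries, mean per group; R 4.3.3), with Benjamini-Hochberg adjustment over 20988 genes, and standard errors were the log2 fold change divided by the root of the F statistic. The steps were tested on simulated data. FPKM gave levels. Alternatives used DESeq2 1.42.0 and limma 3.58.1 with pseudocounts of 0.1 and 1, other scalings, filters and thresholds, a replicate block and each library left out. With 3 libraries against 3, an exact permutation test of a single gene cannot give a p below 0.1, so it made no call. The 10 genes and the gene lists were chosen with earlier results of these data known. All 10 genes are named, and of each list up to 6 (the 3 highest in level and the 3 of smallest p among those that passed). The neighbouring genes, SRPRB, HNF4A and the epithelial markers near 0 were named after their values were seen. RefSeq promoter windows supplied the sequences. Another promoter motif and the values of some transcription factors are not reported here.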

Additional observations from a re-analysis of the deposited data

How the results depend on the processing

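Over all tested genes, the number past the test with 1 library left out ran from 2021 (without NC 3; 2065 and 2255 without NC 1 or NC 2) to 4729 in Activin against NC (3776 with all), from 686 (without Activin 1) to 4533 (without Activin 2) in Activin+HGF against Activin (2698 with all, and over 1.5 times fewer without any 1 of the others but Activin+HGF 3), and from 4260 (without NC 3; 4373 without NC 1) to 7798 in Activin+HGF against NC (6587 with all). In Activin+HGF against Activin it was 4540 with DESeq2 and 714 when only those 2 groups were used. A log2 fold change minimum of 1 left 2394 and 1697 in the first 2 comparisons, and an adjusted p under 0.01 left 1688, 488 and 3492 in the 3.

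Of the plasma protein genes, 3 to 4, 0 and 4 to 7 passed in the 3 comparisons with 1 library left out, with the lowest, 4 of 7, without Activin+HGF 2. In Activin+HGF against Activin, DESeq2 called 1, limma on log2(FPKM + 0.1) called 2 and on log2(FPKM + 1) called 3. In Activin+HGF against NC, 4 passed with a filter of 1 CPM and 3 at an adjusted p under 0.01. With limma on genes of at least 0.5 FPKM, 2 passed in each of the comparisons with NC, fewer because fewer entered. SERPINA1 in Activin+HGF against Activin turned to -0.0364 with library totals, -0.0717 on log2(FPKM + 0.1) with and without the FPKM filter, and -0.0526 on log2(FPKM + 1). FGG (-0.23) was at -0.42 to 0.00039 with an Activin+HGF library left out, the latter without Activin+HGF 1. The causes were not tested, but library totals put the median of all genes at -0.38 in that comparison and at -0.30 in Activin+HGF against NC. At 0.5 FPKM or more in every library there were 1 and 2 genes in NC and Activin+HGF, at 0.1 there were 1, 2 and 4 in the 3 groups, and at 5 there were 0. For single genes, 332 further values kept their direction and call, 30 lost the call and 6 gained it.

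A replicate block left 3362, 2044 and 6088 of all genes past the test, and 3, 0 and 5 plasma protein genes; FGG in Activin against NC (adjusted p = 0.0531, edgeR), AMBP and ALB in Activin+HGF against NC (0.0528 and 0.0686, edgeR) no longer passed. To look for pairing, the group mean of each gene was subtracted from its log2 CPM, and these deviations were correlated between libraries of different groups. The deviations correlated at -0.0606 to 0.0882 for libraries of equal number and at -0.0825 to 0.108 for those of unequal number, and the ranges overlapped. The labels do not say whether equal numbers shared a culture or a batch.

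At this depth TTR, FGB and AGT could not be compared, and the calls of ALB, AMBP and FGG rest on few counts in NC.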
